A study of Rattus norvegicus with 15 samples.

Results

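The circadian clock genes of the liver are described here in 10 genes: Bmal1 (annotated Arntl or Bmal1), Clock, Npas2, Per1, Per2, Per3, Cry1, Dbp, Nr1d1 and Nr1d2. Their members were all probe sets of the array whose annotation names 1 of these genes and no other gene, which gave 17 of 31099 probe sets. Of these, 14 were bright enough to be tested among 18625 tested probe sets, and each of the 10 genes kept at least 1. The samples were livers of 15 male Sprague-Dawley rats, 5 arrays per diet, which the sample titles call biological replicates. The rats were 4 weeks old at the start, had 5 days of adaptation, lived in single cages on a cycle of 12 h of light, and then ate their diet for 14 days. The control diet was free of isoflavones, while the other diets held 2 g/kg of daidzein or 2 g/kg of genistein, which are the 2 main soy isoflavones. All diets had the same base, with 200 g/kg casein, 100 g/kg palm oil, 150 g/kg corn starch and sucrose. The hour of killing and whether the rats were fasted are not given in the sources used here, so a difference in clock level between animals cannot be told apart from a difference in sampling time.

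The liver clock is a feedback loop. BMAL1 pairs with CLOCK or NPAS2 and activates genes that carry an E-box, among them the Per and Cry genes, Nr1d1, Nr1d2 and Dbp. PER and CRY proteins then repress that pair, and NR1D1 and NR1D2 (REV-ERB alpha and beta) repress Bmal1 through ROR/REV-ERB elements, on which ROR proteins activate. In rodent liver Dbp, Nr1d1 and Nr1d2 peak in the part of the day when Bmal1 and Npas2 are low, while Cry1 peaks later than Dbp. DBP itself acts through D-box elements.

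Promoters of 9 of the 10 genes were present in the RefSeq table used (build GRCr8), in 11 windows of 300 bases that run from 250 bases before to 50 bases after an annotated start. The 3 response elements of the clock were searched on both strands: the E-box CACGTG, the D-box TTATGTAA and the ROR/REV-ERB element ANTAGGTCA. The windows that held one are shown because they place an element of the loop at a member whose level is described below, and the capitals mark the element.
Bmal1: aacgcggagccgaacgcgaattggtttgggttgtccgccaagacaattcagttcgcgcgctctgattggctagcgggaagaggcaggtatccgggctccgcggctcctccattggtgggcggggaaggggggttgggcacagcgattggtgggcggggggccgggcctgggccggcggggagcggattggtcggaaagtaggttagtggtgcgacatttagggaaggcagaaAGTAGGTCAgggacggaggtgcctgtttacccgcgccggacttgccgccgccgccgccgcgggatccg
Per2: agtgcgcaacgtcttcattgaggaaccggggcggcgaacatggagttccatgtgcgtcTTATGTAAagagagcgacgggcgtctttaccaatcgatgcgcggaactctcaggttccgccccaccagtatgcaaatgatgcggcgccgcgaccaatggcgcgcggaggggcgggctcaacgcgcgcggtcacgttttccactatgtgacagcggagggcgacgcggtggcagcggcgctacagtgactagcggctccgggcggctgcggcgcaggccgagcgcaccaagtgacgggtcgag
Nr1d1: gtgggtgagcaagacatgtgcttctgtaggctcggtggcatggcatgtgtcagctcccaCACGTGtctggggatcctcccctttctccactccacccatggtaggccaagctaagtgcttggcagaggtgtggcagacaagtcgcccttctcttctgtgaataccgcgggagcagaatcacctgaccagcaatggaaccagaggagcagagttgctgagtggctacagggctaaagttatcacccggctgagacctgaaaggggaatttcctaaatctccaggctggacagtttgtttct
The Bmal1 window is chr1:176766078-176766377 on the plus strand, with a ROR/REV-ERB element from base 233 of the window, -18 from the start. The Per2 window is chr9:99496944-99497243 on the minus strand, with a D-box from base 59, -192 from the start. The Nr1d1 window is chr10:84229405-84229704 on the minus strand, 1 of the 2 annotated Nr1d1 starts, with an E-box from base 60, -191 from the start. Across all 33469 promoters of the table, 6.42% held the E-box, 0.893% the D-box and 0.657% the ROR/REV-ERB element. A match describes the letters of the window and is no evidence of binding, and the other 8 windows held none of the 3 elements within these bases.

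Levels below are quantile-normalized values in log2 units, whose zero is arbitrary. They rest on a scale worked out from the deposited values, so fold changes depend on it. The filter for testing corresponded to a level of -0.30. Values of different probe sets are not comparable with each other. Between arrays, levels over tested probe sets correlated with r from 0.931 to 0.969. The 5 hepatocyte markers tested were bright, with a list mean between 8.62 and 8.68; they lie at the top of the normalized scale, where Alb had 1 value (9.29) in all 15 arrays, so they do not measure hepatocyte content. Of the other marker lists, no gene differed between diets in limma at an adjusted p of 0.05. The array daidzein 5 alone held pancreas transcripts, with Prss1 (trypsinogen) at 7.59, Cpa1 (carboxypeptidase) at 5.91 and Ins2 (insulin) at 1.58, against at most 0.47, 0.52 and 0.28 in the other 14 arrays. Their part in the results below was not tested. Diet differences, relations and associations without that array are given below for some of those that it changed. In these bulk samples, fewer cells of a type and less RNA per cell cannot be told apart.

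Among the activators, Bmal1 (probe set 1370510_a_at, Entrez gene 29657) had a level of 1.55, 1.59, 1.74, 1.75 and 1.49 in control arrays 1 to 5, 1.83, 1.85, 1.51, 1.60 and 1.06 in daidzein arrays 1 to 5, and 1.60, 1.16, 0.38, 1.62 and 1.45 in genistein arrays 1 to 5. Genistein 3 was by far the lowest, and the 3 diets overlapped. Clock (probe set 1390199_at, Entrez gene 60447), the partner of BMAL1, was at 1.57, 1.49, 1.54, 1.51 and 1.81 in control arrays 1 to 5, 1.81, 1.60, 1.77, 1.80 and 2.04 in daidzein arrays 1 to 5, and 1.81, 1.57, 1.31, 1.37 and 1.82 in genistein arrays 1 to 5. All 5 daidzein arrays lay above the control mean of 1.58, but control 5 equalled daidzein 1, so the diets overlapped. Npas2 (probe set 1383439_at, Entrez gene 316351), which can take the place of CLOCK, was at 1.59, 1.80, 1.52, 1.71 and 1.48 in control arrays 1 to 5, 0.90, 1.71, 1.13, 1.42 and 1.15 in daidzein arrays 1 to 5, and 1.61, 1.56, 0.70, 1.45 and 1.39 in genistein arrays 1 to 5. Daidzein 1 and genistein 3 were its lowest arrays, and the diets overlapped. Over the 15 arrays Bmal1 spanned 1.47 log2 units (2.78-fold), Npas2 1.10 and Clock 0.73.

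Among the repressors, Per1 (probe set 1374855_at, Entrez gene 287422), which also responds to glucocorticoids, was at 1.47, 1.24, 0.75, 1.28 and 1.28 in control arrays 1 to 5, 1.23, 1.44, 1.05, 1.33 and 1.08 in daidzein arrays 1 to 5, and 0.79, 1.06, 1.24, 1.89 and 1.47 in genistein arrays 1 to 5. Control 3 was lowest and genistein 4 highest, with overlapping diets. Per2 (probe set 1378560_at, Entrez gene 63840) was at 1.60, 1.30, 1.36, 1.33 and 0.94 in control arrays 1 to 5, 1.44, 1.33, 1.15, 1.14 and 1.37 in daidzein arrays 1 to 5, and 1.04, 1.04, 1.05, 1.25 and 1.06 in genistein arrays 1 to 5. The genistein arrays were the tightest group and lay within the range of the controls. Per3 (probe set 1378745_at, Entrez gene 78962) was at 0.19, -0.78, 0.56, -0.56 and -0.40 in control arrays 1 to 5, 0.28, 0.47, -0.23, -0.12 and -0.33 in daidzein arrays 1 to 5, and 0.16, -0.28, 1.01, 0.49 and -0.43 in genistein arrays 1 to 5. Genistein 3 was highest and control 2 lowest, and the diets overlapped. Per3 was below the filter level in control 2, control 4, control 5, daidzein 5 and genistein 5. Cry1 (probe set 1392640_at, Entrez gene 299691), a repressor of the BMAL1 and CLOCK pair, was at 1.78, 0.75, 2.29, 1.43 and 0.57 in control arrays 1 to 5, 2.15, 1.52, 1.00, 0.92 and 0.22 in daidzein arrays 1 to 5, and 1.20, 0.09, -0.02, 1.16 and 0.48 in genistein arrays 1 to 5. All 5 genistein arrays lay below the control mean of 1.37, yet control 5 was at 0.57, lower than genistein 1 and genistein 4, so the diets overlapped.

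The REV-ERB receptors and the output factor Dbp varied the most. Nr1d1 (probe set 1370816_at, Entrez gene 252917) was at -1.13, 1.70, -0.73, 0.61 and 2.24 in control arrays 1 to 5, -0.92, 0.34, 2.09, 1.86 and 2.49 in daidzein arrays 1 to 5, and 0.44, 2.25, 3.07, 0.44 and 2.27 in genistein arrays 1 to 5. Control arrays reached from -1.13 to 2.24 and daidzein arrays from -0.92 to 2.49, while genistein arrays lay between 0.44 and 3.07, so the diets overlapped. Nr1d2 (probe set 1390430_at, Entrez gene 259241), the paralog of Nr1d1, was at 0.82, 1.93, 0.30, 1.35 and 2.50 in control arrays 1 to 5, 0.42, 0.85, 2.16, 2.36 and 2.82 in daidzein arrays 1 to 5, and 1.23, 2.61, 3.12, 1.11 and 2.45 in genistein arrays 1 to 5. Nr1d1 and Nr1d2 were highest in genistein 3 and lowest in control 1 and control 3 respectively. Dbp (probe set 1387874_at, Entrez gene 24309), a PAR-bZIP transcription factor, was at -0.97, -0.78, -0.19, -0.25 and 1.20 in control arrays 1 to 5, -0.67, -0.51, 1.05, 0.76 and 2.00 in daidzein arrays 1 to 5, and -0.15, 1.88, 3.19, -0.997 and 0.84 in genistein arrays 1 to 5. Genistein 3 was highest and genistein 4 lowest, so 1 diet held both extremes. Dbp spanned 4.18 log2 units (18.2-fold), Nr1d1 4.21 (18.5-fold), Nr1d2 2.82 (7.05-fold) and Cry1 2.31 (4.96-fold). In 5 arrays Dbp, and in 3 arrays Nr1d1, was below the filter level, where the background that was subtracted sets the size of a fold. With 16 added to the rebuilt intensities, the spans of Dbp and Nr1d1 shrank to 10.5-fold and 10.2-fold.

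**Figure D1:**
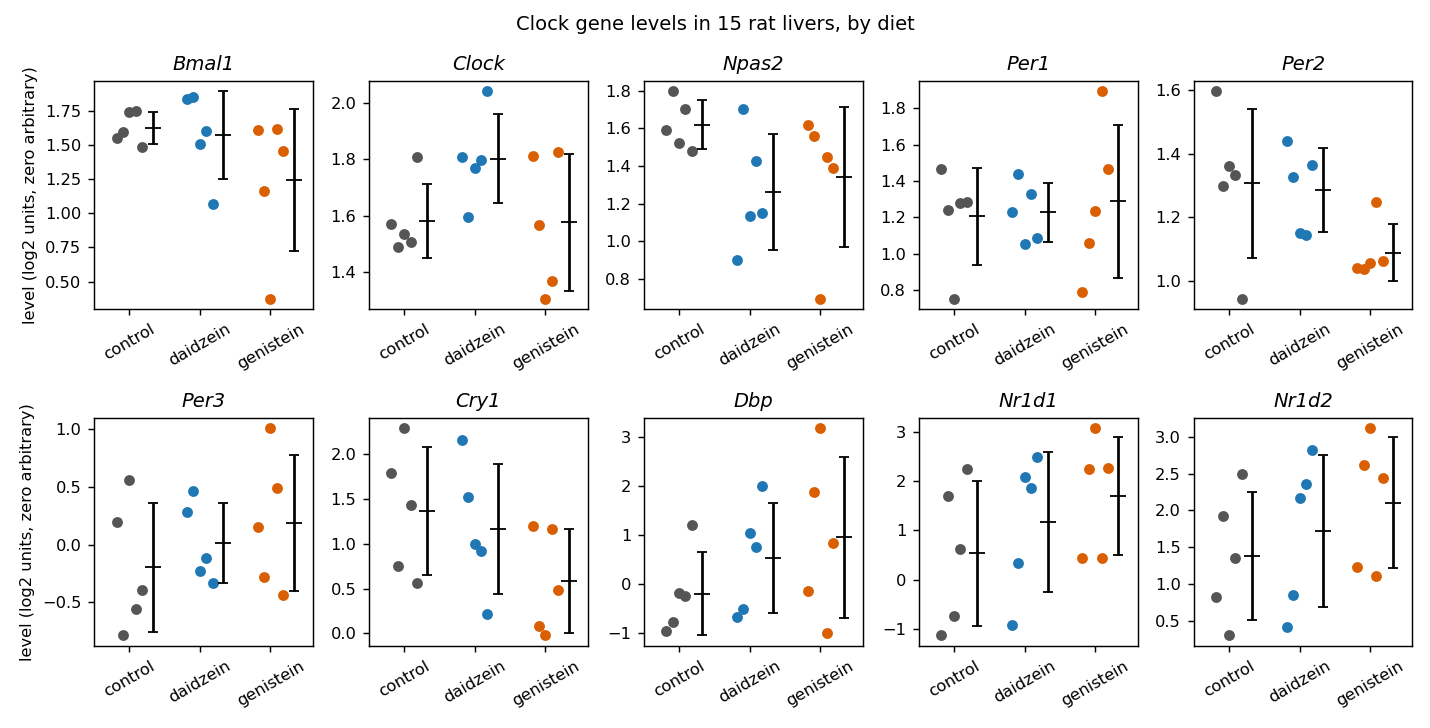
Level of each clock gene (log2 units, arbitrary zero, own vertical scale per panel) in the 15 arrays by diet, 1 point per array in replicate order, with the mean and SD (n = 5) as a bar beside the points. The diets overlap in every panel, and Dbp, Nr1d1, Nr1d2 and Cry1 spread over 2.31 to 4.21 log2 units.

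Where a gene had several probe sets, they did not always move together. The tested pair for Nr1d2 correlated with r = 0.988 over the 15 arrays with diet means removed. The Per2 pair had r = -0.102, and the 3 tested Clock probe sets had r between -0.10 and 0.47. These are descriptions over the same 15 arrays. The second Per2 probe set (1368303_at) was at 0.16, -0.45, 1.11, 0.38 and 0.18 in control arrays 1 to 5, 0.11, -0.34, -0.13, -0.05 and -0.57 in daidzein arrays 1 to 5, and -0.24, -0.20, 0.34, -0.85 and -0.00 in genistein arrays 1 to 5. Control 3 was its highest array, and the diets overlapped. The Clock probe set 1380098_at was at 0.11, 0.37, 0.39, 0.52 and 0.40 in control arrays 1 to 5, 0.56, 0.34, 0.75, 0.80 and 0.68 in daidzein arrays 1 to 5, and 0.60, 0.36, 0.33, 0.30 and 0.43 in genistein arrays 1 to 5. Its lowest array was control 1 and its highest daidzein 4, with overlapping diets. The third tested Clock probe set (1389456_at) ranged from 1.05 to 1.66, and the second for Nr1d2 (1370541_at) from -0.35 to 2.37. The 3 other probe sets fell under the filter and were not tested: Clock 1369168_a_at between -0.76 and 0.23, Per3 1388239_at between -1.77 and 0.71, and Nr1d2 1370540_at between -2.51 and 0.42. Per3 1388239_at had r = 0.0143 with the tested Per3 probe set. For Clock, Per2 and Per3, statements about the gene therefore hold for the named probe set.

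No clock gene differed between diets at an adjusted p of 0.05. Each comparison was fitted with limma on all 15 arrays and adjusted by Benjamini-Hochberg over the 18625 tested probe sets. Genistein against control called 0 of 14 member probe sets, where 0.322% of all tested probe sets (60) were called. Daidzein against control called 0 of 14, against 0.0161% of all (3), and genistein against daidzein called 0 of 14, against 0.113% of all (21). With 14 members, none called is what these shares would give, so the counts alone say little about the clock genes. At an unadjusted p of 0.05, 0, 1 and 1 of the 14 passed in the 3 comparisons, against 11%, 8.25% and 9.37% of all tested probe sets. The probe set that passed was Clock 1380098_at, by 0.27 ± 0.10 (SE) for daidzein against control (adjusted p = 0.509 in limma, unadjusted 0.0181) and by -0.22 ± 0.10 for genistein against daidzein (adjusted p = 0.523 in limma, unadjusted 0.0466). The 5 arrays of one diet lay wholly beyond the 5 of the other for 0 of 14 members in each comparison, while this held for 2.57%, 1.88% and 2.03% of all tested probe sets.

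The estimates for genistein against control were largest for the REV-ERB receptors, Dbp and Cry1, and their intervals were wide. Nr1d1 had means of 1.70 ± 1.19 (SD, n = 5) on genistein and 0.54 ± 1.47 on the control diet, a log2 difference of 1.16 with a 95% interval from -0.52 to 2.84 and an adjusted p of 0.651 in limma. Dbp averaged 0.95 ± 1.65 against -0.20 ± 0.85, a difference of 1.15 with an interval from -0.39 to 2.69 and an adjusted p of 0.617. For Nr1d2 the difference was 0.72 (interval -0.43 to 1.87). Cry1 averaged 0.58 ± 0.58 against 1.37 ± 0.72, a difference of -0.78 with an interval from -1.62 to 0.05 and an adjusted p of 0.489. Bmal1 averaged 1.24 ± 0.52 against 1.62 ± 0.12, a difference of -0.38 (interval -0.83 to 0.07). All 5 genistein arrays were below the control mean of 1.623, but genistein 1 (1.605) and genistein 4 (1.616) only just. Per2 1378560_at differed by -0.22 (interval -0.45 to 0.01) and Npas2 by -0.28 (interval -0.65 to 0.09). The second Per2 probe set (1368303_at) differed by -0.47 (interval -1.015 to 0.077), and by -0.26 without control 3. Per3 (0.39), Per1 (0.08) and Clock (-0.01) completed the set, none with an interval that left out 0. Single arrays moved several of these differences by over 1.5 times. Without genistein 3 they were 0.59 for Dbp, -0.16 for Bmal1, -0.12 for Npas2, 0.47 for Nr1d2 and 0.18 for Per3. Without control 1 the Nr1d1 difference was 0.74, without control 2 that of Per3 was 0.24, and without control 3 that of Nr1d2 was 0.46. Without control 3 or without genistein 4 the Per1 difference turned to -0.03 and -0.07.

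For daidzein against control, which used the same 5 control arrays, the differences were 0.64 for Nr1d1, 0.73 for Dbp, 0.34 for Nr1d2 and -0.20 for Cry1, with adjusted p between 0.827 and 0.917 in limma. The Npas2 difference was -0.36 (interval -0.73 to 0.01; adjusted p = 0.618) and that of Clock 1390199_at was 0.22 (interval -0.03 to 0.47). Bmal1 differed by -0.05, Per2 1378560_at by -0.02, Per3 by 0.21 and Per1 by 0.02. The second Per2 probe set (1368303_at) differed by -0.47, with an interval from -1.02 to 0.07 and an adjusted p of 0.654 in limma. All 5 daidzein arrays of that probe set lay below its control mean, but the diets overlapped. Without control 3 its difference was -0.27. Without daidzein 5, the array with pancreas transcripts, the sign of the Bmal1 and Cry1 differences turned, to 0.07 and 0.03, and the differences were 0.31 for Nr1d1, 0.36 for Dbp and 0.07 for Nr1d2 (0.04 for the probe set 1370541_at, from 0.28). With any 1 array left out, Nr1d1 ranged from 0.22 (without control 1) to 1.16 (without daidzein 1), Nr1d2 from 0.07 to 0.67, Dbp from 0.36 to 1.08 and Per3 from 0.06 (without control 2) to 0.40 (without control 3). Cry1 ranged from -0.45 (without daidzein 1) to 0.03, and was also at 0.03 without control 3.

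Genistein against daidzein gave differences of 0.52 for Nr1d1, 0.42 for Dbp, 0.38 for Nr1d2 and -0.58 for Cry1. Bmal1 differed by -0.33, Clock by -0.23, Per2 1378560_at by -0.20 (0.005 for 1368303_at), Per3 by 0.17, Npas2 by 0.08 and Per1 by 0.06. Every interval for these probe sets, 1 per gene, included 0; that of Clock 1380098_at (-0.44 to -0.004) did not, and adjusted p ranged from 0.523 to 0.998 over the 14 probe sets in limma. Without genistein 3 the differences were -0.13 for Dbp, 0.18 for Nr1d1, 0.13 for Nr1d2 and -0.11 for Bmal1. Without daidzein 5 they were 0.79 for Dbp and 0.09 for Per3. With any 1 array left out, Nr1d1 ranged from 0.001 (without daidzein 1) to 0.85 (without daidzein 5), Dbp from -0.13 to 0.91 (without genistein 4), Nr1d2 from 0.06 (without daidzein 1) to 0.66 (without daidzein 5), and Cry1 from -0.82 (without daidzein 5) to -0.33 (without daidzein 1). The median absolute difference over the 14 member probe sets was 0.383, 0.246 and 0.223 in the 3 comparisons, and over all tested probe sets it was 0.115, 0.111 and 0.110. Of the 14, 10 had a within-diet SD above the median of all tested probe sets (0.220). Such spread widens differences between means of 5 arrays, so these medians alone do not show a diet response. For genistein against control, the upper end of the interval was 7.15-fold for Nr1d1 and 6.45-fold for Dbp, so differences up to that size lay within the error of 5 arrays per diet.

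**Figure D2:**
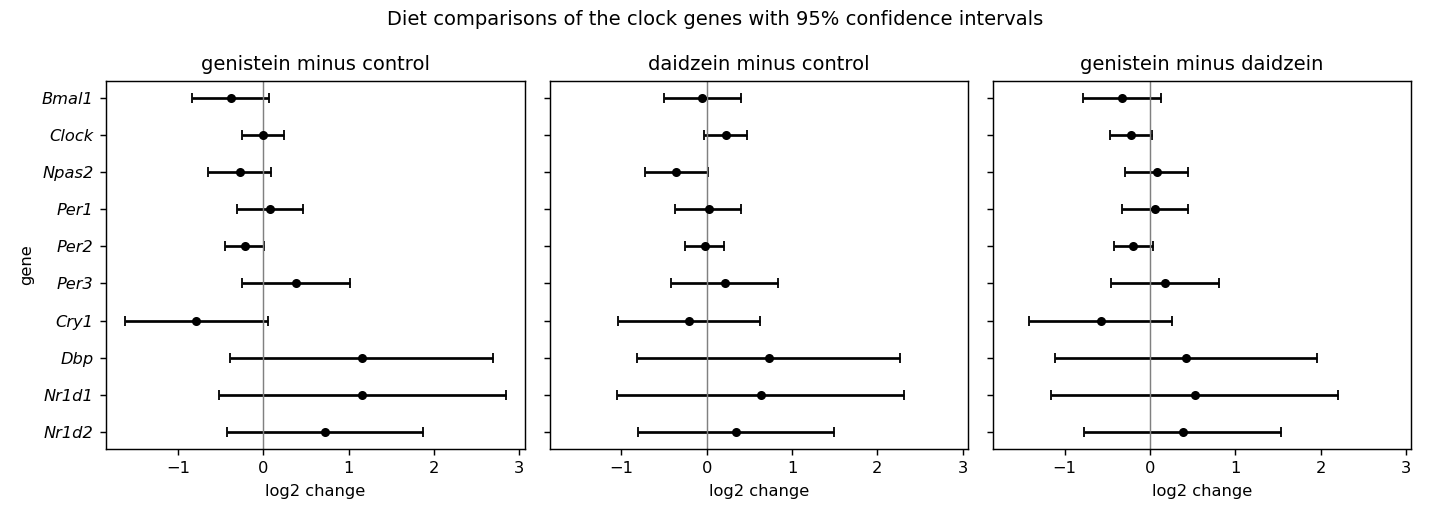
Log2 change of the 10 clock genes in each diet comparison, with points for the limma estimate and bars for its 95% confidence interval (5 arrays per diet). All intervals of these 10 probe sets include 0, and those of Nr1d1 and Dbp reach from below 0 to 2.84 and 2.69 for genistein against control.

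Within a diet, the arrays differed far more in Nr1d1, Dbp, Nr1d2 and Cry1 than in most genes, while Clock and Per2 1378560_at were below the median. The SD within diet (12 residual degrees of freedom) was 1.37 log2 units for Nr1d1, 1.25 for Dbp, 0.934 for Nr1d2 and 0.675 for Cry1, against a median of 0.220 over all tested probe sets. These stood at percentiles 99.7, 99.5, 98.6 and 96.4 of the 18625. With the second Nr1d2 probe set, 5 of the 14 members were above the 95th percentile, and 5 were also when each was set against probe sets within 0.5 log2 units of its own level. Per3 (0.506, percentile 91.9), Bmal1 (0.358, percentile 80.0) and Per1 (0.303, percentile 71.1) were in the upper part. Npas2 (0.289), Clock (0.183, percentile 37.6) and Per2 1378560_at (0.164, percentile 30.8) followed. The second Per2 probe set (1368303_at) was also in the upper part, at 0.437 and percentile 88.1. The order is a description of these 15 arrays.

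**Figure D3:**
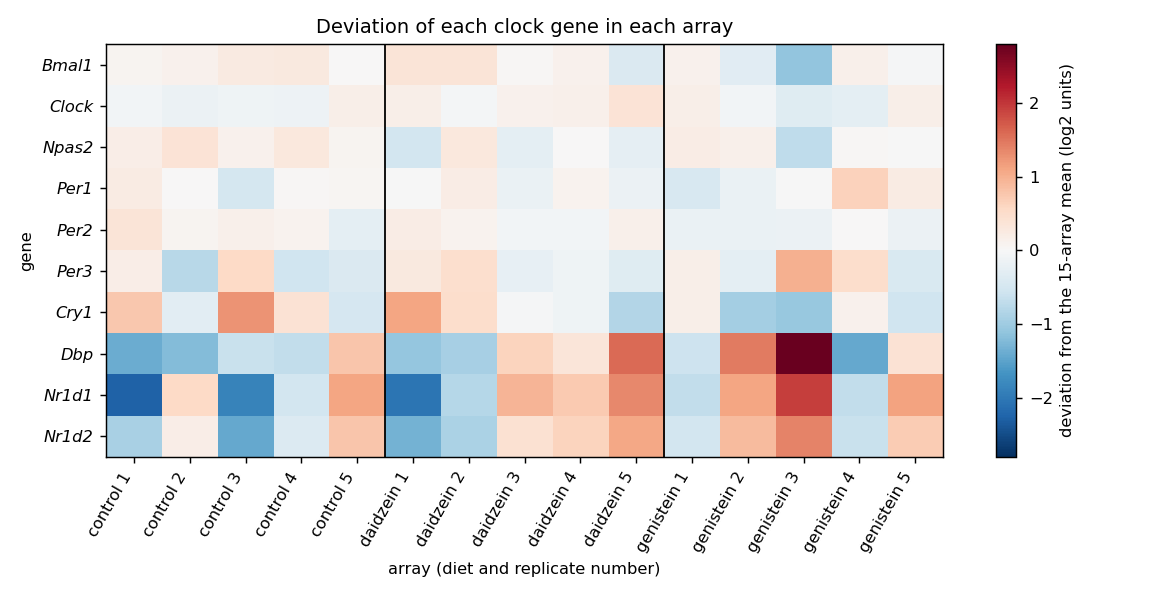
Deviation of each clock gene (rows) from its mean over the 15 arrays (columns, ordered by diet and replicate number) in log2 units, red above and blue below the mean, with black lines between diets. Nr1d1, Nr1d2 and Dbp are red and Cry1 is blue in control 5, daidzein 3, 4 and 5, and genistein 2, 3 and 5, and mostly the opposite in the other arrays.

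The question of whether the arrays differ in clock phase was put to the pairs of genes, which can show joint variation only. As the hour of killing is not given, such relations cannot separate phase from other sources of joint variation. For each of the 45 pairs, Pearson's r was computed over the 15 arrays with diet means removed, with a two-sided permutation p from 100000 shuffles within diet, adjusted by Benjamini-Hochberg over the 45. Of these, 11 pairs passed, 4 with positive and 7 with negative r. No share of passing pairs among other genes is given here, so the count does not show a trait particular to the clock genes. The 2 REV-ERB genes rose and fell together (r = 0.967, rho = 0.936, permutation p = 2e-05, adjusted p = 0.00045; r = 0.988 without the 2 arrays farthest from the median of Nr1d1). Cry1 went against both: with Nr1d2 r was -0.971 (rho = -0.971, permutation p = 1e-05, the smallest these shuffles can give; adjusted p = 0.00045; r = -0.959 without 2 arrays). With Nr1d1, Cry1 had r = -0.950 (rho = -0.932, permutation p = 5e-05, adjusted p = 0.00075; r = -0.939 without 2 arrays).

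Dbp rose with both REV-ERB genes. With Nr1d1, r was 0.793 (rho = 0.775, permutation p = 0.00056, adjusted p = 0.00315; r = 0.754 without genistein 3 and daidzein 5). With Nr1d2, r was 0.838 (rho = 0.814, permutation p = 0.00038, adjusted p = 0.00315; r = 0.793 without the same arrays). Dbp and Cry1 had r = -0.767 (rho = -0.768, permutation p = 0.00104, adjusted p = 0.0052; r = -0.858 without 2 arrays). Array control 2 departed from this order: its Nr1d1 was at 1.70, among the upper 8 arrays, while its Dbp was at -0.78, among the lowest 3.

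Bmal1 moved against Dbp and the REV-ERB genes, though with Dbp only weakly in the 5 control arrays alone (r = -0.313). Its r with Dbp was -0.869 (rho = -0.879, permutation p = 0.00012, adjusted p = 0.00135; r = -0.796 without genistein 3 and daidzein 5). With Nr1d2 it was -0.734 (rho = -0.796, permutation p = 0.00056, adjusted p = 0.00315; r = -0.791 without them). With Nr1d1 it was -0.649 (rho = -0.668, permutation p = 0.00328, adjusted p = 0.0148; r = -0.667 without them), but without genistein 1 or genistein 4 the adjusted p was 0.0579 and 0.07. Bmal1 rose with Cry1, with r = 0.702 (rho = 0.764, permutation p = 0.00055, adjusted p = 0.00315; r = 0.756 without genistein 3 and daidzein 5). The Bmal1 promoter window above holds the ROR/REV-ERB element, and the Nr1d1 window an E-box; whether these account for the relations was not tested.

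Other pairs did not pass, and a p that misses the threshold does not show that they were unrelated. Bmal1 and Npas2 had r = 0.650 (rho = 0.5, permutation p = 0.0697, adjusted p = 0.184), which fell to 0.096 without genistein 3 and daidzein 5; without genistein 3 alone it was 0.198 and without daidzein 5 alone 0.671, so it rests on genistein 3. Bmal1 and Clock had r = 0.0997 (rho = -0.0536, permutation p = 0.846, adjusted p = 0.928; r = -0.244 without 2 arrays). Dbp and Per3 had r = -0.0999 (rho = -0.161, permutation p = 0.764, adjusted p = 0.91), and r = -0.698 without genistein 3 and control 3. Per1 and Per2 had r = 0.267 (rho = 0.318, permutation p = 0.313, adjusted p = 0.587; r = 0.211 without 2 arrays). Per2 and Nr1d1 passed (r = -0.698, rho = -0.646, permutation p = 0.00634, adjusted p = 0.0259; r = -0.585 without 2 arrays), but not by rho (adjusted p = 0.0772). It was lost without control 1 (adjusted p = 0.121), control 3 (0.0566), control 5 (0.136), daidzein 1 (0.0659) or genistein 4 (0.07), and the second Per2 probe set did not track the first.

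A few arrays moved the count of passing pairs. Without genistein 3, 14 pairs passed, the added ones being Per3 with Cry1 (r = 0.821, adjusted p = 0.0102), with Nr1d1 (r = -0.835, adjusted p = 0.00985) and with Nr1d2 (r = -0.840, adjusted p = 0.00922). Without daidzein 5, 14 passed, with Per2 added against Cry1 (adjusted p = 0.0387), Dbp (0.0116) and Nr1d2 (0.0179). Without daidzein 1, Npas2 with Dbp passed (adjusted p = 0.0414). The fewest, 9, passed without genistein 4. The pairs among Dbp, Nr1d1, Nr1d2 and Cry1, and those of Bmal1 with Dbp, Cry1 and Nr1d2, passed without any single array. All values of a pair come from the same arrays. Measures of the arrays were set against Dbp, Nr1d1 and Cry1 in 12 relations. They were the 3 prime minus 5 prime difference of Gapdh and of beta-actin, the array median and the scale factor. None passed. The lowest p was that of the array median with Dbp (r = -0.572, rho = -0.621, permutation p = 0.0274, adjusted p = 0.181, and r = -0.698 without 2 arrays). With Nr1d1 the array median had r = -0.597 (permutation p = 0.0302, adjusted p = 0.181). The beta-actin difference had r = 0.538 with Dbp (permutation p = 0.066, adjusted p = 0.264). Missing the threshold does not show that these measures were unrelated to the clock levels.

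**Figure D4:**
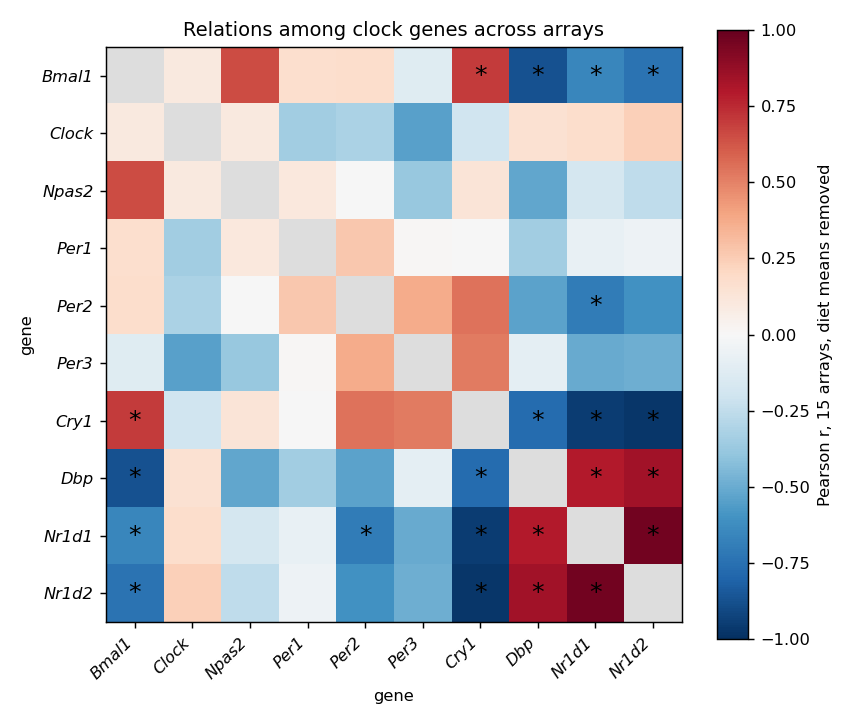
Pearson r of each pair of clock genes over the 15 arrays with diet means removed, from blue (-1) to red (1), with a star where the permutation p adjusted over 45 pairs was under 0.05. The 11 starred pairs join Dbp, Nr1d1, Nr1d2, Cry1 and Bmal1, plus Per2 with Nr1d1.

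**Figure D5:**
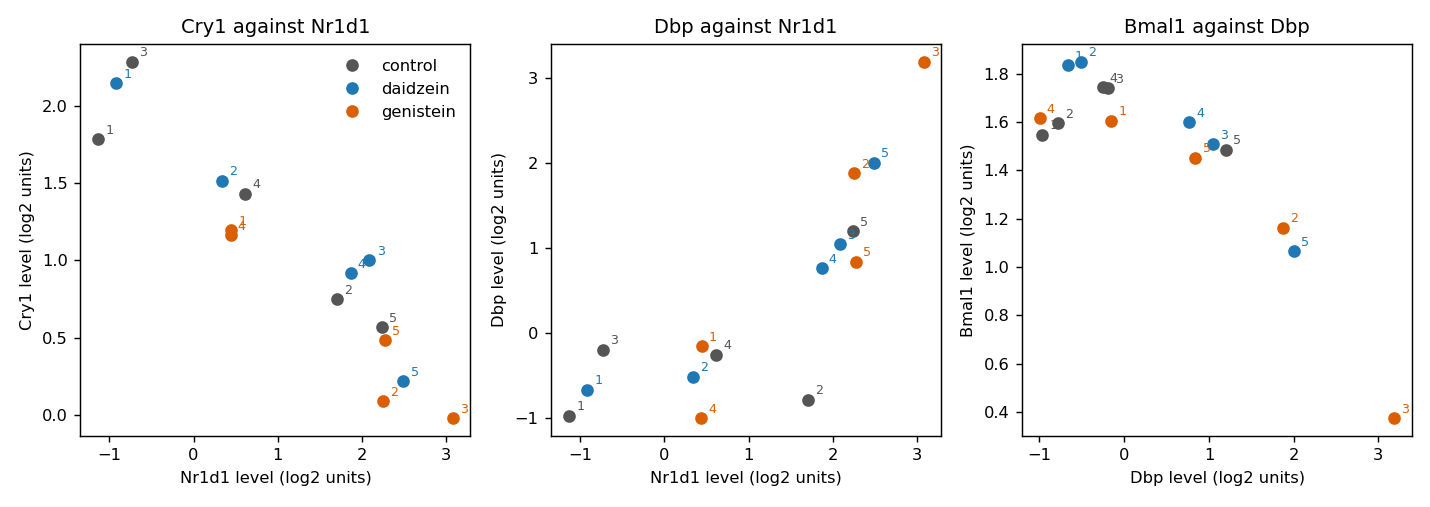
Level of Cry1 against Nr1d1, of Dbp against Nr1d1 and of Bmal1 against Dbp (log2 units, as measured), 1 point per array with its replicate number, coloured by diet. With diet means removed r is -0.950, 0.793 and -0.869. In the control arrays alone r was -0.936, 0.594 and -0.313. In the daidzein arrays it was -0.955, 0.932 and -0.963, and in the genistein arrays -0.967, 0.936 and -0.926.

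To give each array 1 value, an index from textbook timing was taken as the mean deviation of Bmal1, Npas2 and Clock minus that of Dbp, Nr1d1 and Per3, and it is given without a test because the genes were chosen with the data known. Its genes are not those of the passing pairs: Clock, Npas2 and Per3 had no passing pair, and Cry1 and Nr1d2 are not in it, so it follows mainly Dbp and Nr1d1, which vary most. Per3 enters it with the sign of Dbp and Nr1d1. Its r was -0.0999 with Dbp and -0.504 with Nr1d1, neither of which passed. It was 1.21, 0.59, 0.73, 0.72 and -0.41 in control arrays 1 to 5, 0.96, 0.63, -0.49, -0.22 and -0.96 in daidzein arrays 1 to 5, and 0.54, -0.84, -2.62, 0.51 and -0.33 in genistein arrays 1 to 5. Control 5, daidzein 3 to 5 and genistein 2, 3 and 5 were below 0, so each diet held arrays on both sides. The diet means were 0.57 ± 0.60 (SD, n = 5) for control, -0.02 ± 0.79 for daidzein and -0.55 ± 1.30 for genistein, and the ranges overlapped. The widest gap between neighbouring arrays was 1.18 for Dbp and 1.09 for Nr1d1, and no groups of arrays were defined from the values.

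The rest of the clock was described from lists of genes, none of which had a called gene in any of the 3 comparisons. Of 18 accessory genes, 12 were tested, with median log2 changes of 0.04 (genistein against control), -0.12 (daidzein against control) and 0.09 (between the isoflavones), where the median of all tested probe sets was 0.00. The lowest p values in the 3 comparisons were those of Rora, Csnk1e (a casein kinase that marks PER proteins for decay) and Tef, of Rorb, Rora and Bhlhe40, and of Rorb, Rora and Btrc. Rora, the activator at the ROR element, ranged from 0.84 to 2.04 and had a difference of -0.55 for genistein against control (adjusted p = 0.196 in limma). Of 18 output genes, 14 were tested, with medians of 0.14, -0.02 and 0.10. Nampt (NAD salvage; 0.71 on genistein against control, adjusted p = 0.261), Rgs16 and Herpud1 had the lowest p there, followed in the other comparisons by Nampt, Por and Herpud1 and by Rgs16 (2.01, adjusted p = 0.327), Avpr1a and Gys2.

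Genes of feeding, glucocorticoids and heat shock can move with time of day and handling. Of 12 feeding and fasting genes, 10 were tested, with medians of 0.29, 0.06 and 0.09. Tat, Irs2 and Cpt1a, then Irs2, Srebf1 and Tat, then Ppargc1a, Tat and Cpt1a had the lowest p values; Tat was at -1.02 on genistein against control (adjusted p = 0.222 in limma). Of 10 glucocorticoid-responsive genes, 9 were tested, Per1 among them, with medians of -0.01, 0.02 and 0.05. Mt2A (a metallothionein; 1.99 on genistein against control, adjusted p = 0.0709), Mt1 and Sgk1, then Mt1, Sgk1 and Tat, then Mt2A, Sult1a1 and Sgk1 led by p. Of 8 heat shock genes, 5 were tested, with medians of 0.01, 0.18 and -0.18, and Hspa1a, Hspb1 and Hsph1, then Hspa5, Hspb1 and Hspa1a, then Hspb1, Hspa1a and Hspa5 led.

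Levels of other genes were then fitted on Dbp across arrays with diet in the model, a limma fit chosen after the data were seen. Of 18624 other probe sets, 113 (0.607%) were associated with Dbp at an adjusted p of 0.05, 71 (0.381%) in the same and 42 (0.226%) in the opposite direction. The count was 10 without genistein 3 and 12 without genistein 4, while leaving out control 5 (41), daidzein 1 (59), daidzein 2 (62), daidzein 3 (68) and daidzein 5 (47) also lowered the count by over 1.5 times. Among members, Bmal1 (adjusted p = 0.0225) and both Nr1d2 probe sets (0.0238 and 0.0250) passed, and none of them did without genistein 3 (0.133, 0.0918 and 0.0915). Each of the 3 was also lost without genistein 4 and without daidzein 5, and both Nr1d2 probe sets without control 5, daidzein 1 or daidzein 2 as well, so that Bmal1 passed in 12 and each Nr1d2 probe set in 9 of 15 fits with 1 array left out. Rora fell as Dbp rose (adjusted p = 0.0225), a call lost without genistein 3 (0.122), control 5 or daidzein 5. So did Srebf1, a regulator of fat synthesis, which was at 5.73 in control 1 and 3.68 in genistein 3 (adjusted p = 0.0145, and 0.0915 without genistein 3; also lost without genistein 4). Mt2A rose with Dbp (adjusted p = 0.0180, and 0.113 without genistein 3; also lost without genistein 4). Of the 113, 2 were also called in genistein against control, 0 in daidzein against control and 1 in genistein against daidzein.

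The genes whose levels across the 15 arrays were most like Dbp, with diet means removed, were Jade1 (r = 0.961), Hsd17b2 (r = 0.946), Tmem64 (r = 0.940), Slc4a4 (r = 0.936) and Mtfmt (r = 0.932). The most opposite were Plxna2 (r = -0.947), Scly (r = -0.932), Hnrnpc (r = -0.926), Pnpla3 (r = -0.912) and Lrrc59 (r = -0.911). Jade1, Hsd17b2 (a steroid dehydrogenase) and Plxna2 were also associated with Dbp in limma without genistein 3 (adjusted p = 0.00835, 0.00835 and 0.0205). So was the Pnpla3 probe set with r = -0.912 (adjusted p = 0.0341 in limma without genistein 3). For Bmal1, 22 of 18624 probe sets (0.118%) were associated, and 2 without genistein 3, 8 without genistein 4, 53 without genistein 5, and 12 to 14 without genistein 1 or any 1 daidzein array. Among members only Dbp passed there (adjusted p = 0.0264 in limma), and not without genistein 3 (0.2005). Cry1 (0.218), the tested Nr1d2 probe sets (0.180 and 0.205) and Nr1d1 (0.289) did not pass. Most like Bmal1 were Pnpla3 (r = 0.974), Acly (r = 0.943), Tmem97 (r = 0.942), Scly (r = 0.931) and Tubb2a (r = 0.925). Most opposite were Deptor (r = -0.918), Mtfmt (r = -0.918), Ifngr2 (r = -0.909), Il10rb (r = -0.900) and Slc4a4 (r = -0.897). Pnpla3, a lipid droplet acylhydrolase, kept r = 0.939 with Bmal1 without genistein 3. These correlations are descriptions over shared arrays.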

How the data were processed

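Liver RNA of 15 rats was hybridised to 1-channel Affymetrix arrays with biotin labelling, per the labels' protocols. The values were those the authors deposited, a score per probe set. From the deposited values this score was inferred to be a standardized log signal: when exponentiated, all 375 of 375 distances tested among the most repeated values came to whole steps within 0.001. The authors' background correction and probe summary are not given in the sources used here. Scores were multiplied by 2.60 log2 units per unit (2.54 to 2.79 by array) and quantile normalized, since array medians ran from 0.00111 to 0.127. Without 57 control probe sets, those whose mean level reached the 40th percentile, 18625 in all, were fitted with limma 3.58.1 (R 4.3.3) on 3 diets, with Benjamini-Hochberg adjustment and a threshold of 0.05. The platform annotation gave 1 symbol for 20826 probe sets, several for 436 and none for 9780, and 20758 were matched to current rat genes. The probe set of highest mean level stood for its gene, except in the rankings by correlation, which were taken over all tested probe sets. Arrays carry the replicate number of their titles. The sample descriptions number the arrays otherwise, and that numbering was not tried as a pairing. The title numbers did not pair arrays: of 15 same-number pairs, 1 had a correlation of deviations over 0.1 (-0.163 to 0.109).

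The members and lists were chosen with earlier results of these data known. Beside the members, the text names the 3 genes of lowest p of each list in each comparison and the 5 genes of highest and of lowest correlation with Bmal1 and with Dbp, leaving out predicted loci. Rora, Srebf1 and Mt2A were given further values after their association with Dbp was seen. The fit and the shuffles were tested on simulated data. Alternatives were the normalization, the scale, 16 added to the intensities, the filter, the arrays fitted, array weights, the prior, the replicate block and each array left out; the Dbp covariate and the associations were added after seeing the data. The number of arrays limits the precision.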

Additional observations from a re-analysis of the deposited data

Results flagged for a closer look

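In 4 of the 42 groups of 5 arrays formed by the 14 member probe sets and 3 diets, 1 array lay far from the rest by Dixon's test (critical value 0.71), which chance gives in about 1 of 20 groups. Clock 1390199_at was at 1.81 in control 5, with the other control arrays between 1.49 and 1.57. Clock 1389456_at was at 1.66 in control 1, with the others between 1.19 and 1.28. Npas2 was at 0.70 in genistein 3, the array with the lowest Bmal1 and the highest Dbp, with the others between 1.39 and 1.61. Per2 1378560_at was at 1.25 in genistein 4, with the others between 1.04 and 1.06.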

How the results depend on the processing

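The number of member probe sets called stayed at 0 in each comparison under all alternatives, the replicate block included, and the lowest adjusted p of any member was 0.185 in limma. Counts over all tested probe sets moved. For genistein against control, 60 became 34 with median centring, 14 with no filter, 124 with the 60th percentile filter, 0 with only the 10 arrays compared, 140 with array weights, 110 with a trend and robust prior, 17 with the replicate block, 21 with Dbp as a covariate, and 10 to 203 with 1 array left out. For daidzein against control, 3 became 7 with the 60th percentile filter, 7 with array weights, 6 with the trend and robust prior, and 2 to 8 with 1 array left out. For genistein against daidzein, 21 became 9 with median centring, 3 with no filter, 67 with the 60th percentile filter, 35 with 16 added, 2 with only the 10 arrays, 74 with array weights, 53 with the trend and robust prior, 2 with the replicate block, 36 with Dbp as a covariate, and 3 to 136 with 1 array left out. The causes were not tested.

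Of 411 member differences under other settings, 3 changed sign: Clock 1390199_at for genistein against control with median centring (0.0181) and array weights (0.0042), and Per2 1368303_at for genistein against daidzein with values as deposited (-0.0044). With 1 array left out, 24 of 630 did. For genistein against control these ranged from -0.0679 to 0.209 (Per1 1374855_at), -0.0117 to 0.0892 (Clock 1380098_at), -0.1171 to 0.002 (Clock 1389456_at), -0.067 to 0.0622 (Clock 1390199_at). For daidzein against control these ranged from -0.1216 to 0.0747 (Bmal1 1370510_a_at), -0.0918 to 0.087 (Per1 1374855_at), -0.113 to 0.0506 (Per2 1378560_at), -0.4514 to 0.032 (Cry1 1392640_at). For genistein against daidzein these ranged from -0.1285 to 0.1702 (Per2 1368303_at), -0.0896 to 0.1873 (Per1 1374855_at), -0.0295 to 0.3304 (Per3 1378745_at), -0.0121 to 0.2394 (Npas2 1383439_at), -0.1345 to 0.9114 (Dbp 1387874_at). Passing pairs numbered 8 to 13 under other settings, 11 with the replicate block, and 9 to 14 with 1 array left out. The diet means of the index ran from 0.408 to 0.815 for control, -0.262 to 0.218 for daidzein and -0.823 to -0.033 for genistein with 1 array left out. Associations with Dbp ran from 10 to 142 and those with Bmal1 from 2 to 53. Dim arrays of Dbp, Nr1d1 and Per3 limit their folds.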
